A study of Arabidopsis thaliana with 74 samples.

Results

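The genes described here lie around the centromere of Arabidopsis thaliana chromosome 3. They are the 139 genes with locus numbers from AT3G29200 to AT3G45000, ending in 0 or 5 and without AT3G30720, that reached at least 1 CPM (counts scaled to the library total) in at least 2 libraries. They came from 324 such genes listed, of which 185 stayed below that level and 61 of these had no count at all, and they form a small part of the 19383 genes kept in all. RNA was sequenced from aerial rosettes harvested 27 days after sowing, from 36 F1 epiHybrids, their 36 epiRIL fathers and 2 msCol lines (12 and 16). The paper states that the 36 families were picked by leaf area. In 12 the epiHybrid was farthest above the mean of its parents, in 12 farthest below it, and in 12 it did not differ. The epiRILs (epigenetic recombinant inbred lines, Columbia background) inherited hypomethylated stretches of chromosomes from a ddm1-2 mutant ancestor but carry wild-type DDM1. msCol is a male sterile Columbia line, the mother of every epiHybrid, and its ms1 allele sits on a chromosome 5 segment of Landsberg (Ler) origin. Each line was 1 library of pooled rosettes, so families, not plants, were the replicates, and an epiHybrid and its father share a family number.

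Library totals ranged from 38.41 M to 41.27 M counts in epiHybrids and from 38.13 M to 42.21 M in epiRILs, with 38.75 M and 38.8 M in msCol, and 1 count corresponded to 0.0245 CPM. A gene listed at 0 in a library may therefore still be present at up to 0.0735 CPM, the level of 3 counts, and this limit covers counting error only. Rosette markers were high in every library (RBCS1A had at least 8274 CPM in the epiHybrids and 8000 CPM in the epiRILs), and the root markers CASP1 and COBL9 stayed at or below 0.367 CPM. Floral marker AP3 reached 13.8 CPM in 1 epiHybrid and 6.05 CPM in 1 epiRIL, and the part of floral tissue in the results was not tested. Over the 281 on/off genes of the genome (defined below), all 36 epiHybrids correlated best with their own father (r between 0.624 and 0.962, across genes).

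Both libraries of families 12 and 568 went against their labels at the maternal segment. A maternal index was computed from 11 genes near MS1 that were chosen after their values were seen, scaled to 0 at the epiRIL median and to 1 at msCol. It lay between 0.182 and 0.579 in the other 34 epiHybrids and between -0.109 and 0.111 in the other 34 epiRILs. The libraries labelled epiHybrid had an index of 0.0343 in family 12 and -0.0311 in family 568, whereas the libraries labelled epiRIL had 0.332 and 0.353. The labels were kept as given, and each result below was also computed without these families. Values without them are given beside the results where leaving them out changed a call or moved a count.

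A pericentromere is the gene-poor heterochromatin that flanks a centromere, in plants packed with silenced transposons and transposon-derived genes. Its silencing rests on DNA methylation and on DDM1, a chromatin remodeler, and methylation at CG dinucleotides is copied through cell division and can be inherited over generations. Recombination is low there, so long stretches tend to be inherited together. The 139 members, all annotated as protein-coding, spanned 5.285 Mb of chromosome 3 (chr3:11163839-16448844 of the TAIR10.1 assembly, whose annotation supplied all positions). That span held 152 annotated pseudogenes per Mb, against 15.2 per Mb on the rest of chromosome 3, and 72.1 protein-coding genes per Mb, against 279 per Mb. A total of 33 members overlapped another annotated gene, and since the use of strand in counting is not stated, reads from these pairs cannot be told apart.

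The widest differences between lines were those of genes that were silent in some epiRILs and active in others. The 250 bases upstream of the annotated start of the 5 most expressed members of the co-segregating block described below are shown here, 5′ to 3′ on the strand of the gene, with the CG dinucleotides, which can carry methylation on both strands, in capitals.
AT3G44265: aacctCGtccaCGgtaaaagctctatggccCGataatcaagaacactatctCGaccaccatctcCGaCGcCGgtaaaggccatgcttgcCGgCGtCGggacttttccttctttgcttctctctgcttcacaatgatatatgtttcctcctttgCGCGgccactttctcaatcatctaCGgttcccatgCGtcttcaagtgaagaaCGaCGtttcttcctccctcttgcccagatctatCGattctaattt
AT3G44070: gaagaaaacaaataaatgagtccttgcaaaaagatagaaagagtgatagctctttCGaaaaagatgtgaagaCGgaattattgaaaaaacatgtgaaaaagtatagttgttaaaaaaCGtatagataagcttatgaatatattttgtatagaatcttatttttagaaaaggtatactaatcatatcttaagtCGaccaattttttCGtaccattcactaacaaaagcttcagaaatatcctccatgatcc
AT3G30770: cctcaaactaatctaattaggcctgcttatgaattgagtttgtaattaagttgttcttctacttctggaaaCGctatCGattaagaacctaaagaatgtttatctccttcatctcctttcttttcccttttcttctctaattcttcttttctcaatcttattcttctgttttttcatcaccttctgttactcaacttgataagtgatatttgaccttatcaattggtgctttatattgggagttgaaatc
AT3G30165: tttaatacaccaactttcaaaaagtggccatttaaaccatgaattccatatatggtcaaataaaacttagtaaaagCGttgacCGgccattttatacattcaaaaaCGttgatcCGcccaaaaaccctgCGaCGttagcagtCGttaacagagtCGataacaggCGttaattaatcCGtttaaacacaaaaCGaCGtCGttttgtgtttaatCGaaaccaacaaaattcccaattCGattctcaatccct
AT3G30820: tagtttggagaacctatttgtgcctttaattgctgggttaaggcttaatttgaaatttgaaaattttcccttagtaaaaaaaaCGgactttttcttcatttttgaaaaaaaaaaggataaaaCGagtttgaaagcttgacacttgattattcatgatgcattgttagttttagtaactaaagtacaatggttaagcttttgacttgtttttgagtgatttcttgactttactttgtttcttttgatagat
AT3G44265 and AT3G44070 encode glycosyl hydrolase family 35 (beta-galactosidase type) proteins, AT3G30770 an aspartyl protease family protein, AT3G30165 a zinc ion-binding protein and AT3G30820 a retrotransposon ORF-1 protein. Their upstream windows lie at chr3:15956247-15956496 (minus strand), chr3:15829824-15830073 (minus), chr3:12445243-12445492 (plus), chr3:11798192-11798441 (minus) and chr3:12529593-12529842 (plus). The windows of AT3G44265 and AT3G30165 held 17 and 15 CG dinucleotides, that of AT3G44070 held 5, and those of AT3G30770 and AT3G30820 held 2 each. The motif searched was CG, which reads the same on both strands. It was found in 11 of 11 windows of on/off members (median 7 per window, range 2 to 17), in 123 of 128 windows of the other members (median 4), and in 96.0% of the 27443 windows of all protein-coding genes (median 5). These windows are 250 bases of the reference genome, and methylation was not analysed here.

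The spread between lines was first described as the standard deviation (SD) of log2(CPM + 1). Among the 36 epiHybrids the median member had an SD of 0.287, beside 0.260 for all 19383 genes. Among the 36 epiRILs the median member had an SD of 0.232, beside 0.201 for all genes. The upper end was further apart: 6 of 139 members (4.32%) had an SD above 1 among epiRILs, beside 0.733% of all genes, and these 6 were AT3G44265, AT3G44070, AT3G43340, AT3G30770, AT3G30165 and AT3G30820. All of them were on/off genes, whereas of the 23 members with an SD above 0.5 (beside 5.08% of all genes) 10 were on/off and 13 were not. At the other end, AT3G42050, subunit H of the vacuolar proton pump, had an SD of 0.0742 with 252 to 312 CPM in all epiRILs.

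**Figure D1:**
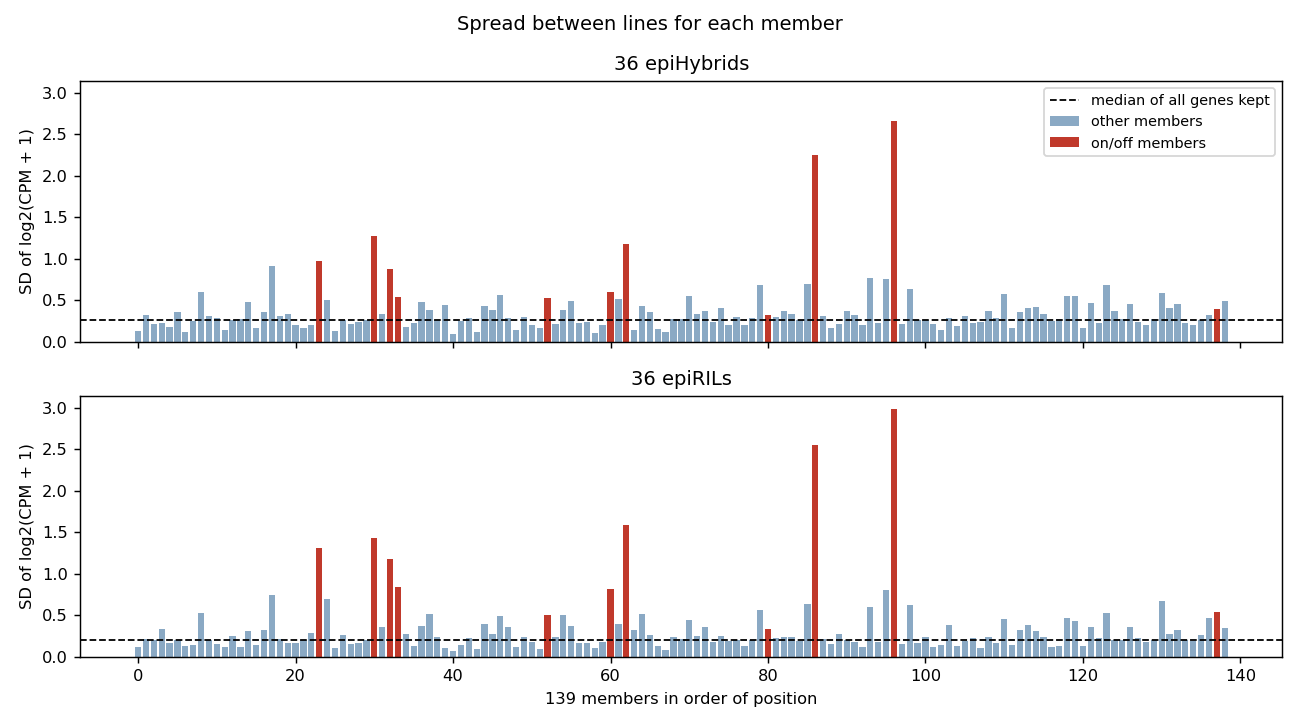
SD of log2(CPM + 1) between lines (vertical axis) for the 139 members in order of position (horizontal axis), over 36 epiHybrids (top) and 36 epiRILs (bottom). Red bars are the 11 on/off members, and the dashed line is the median over all 19383 genes; the tallest bars are AT3G44265 and AT3G44070, at 2.66 and 2.25 in epiHybrids and 2.99 and 2.56 in epiRILs.

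A gene was called on/off when at least 3 epiRILs had 1 CPM or more and at least 3 had 0.1 CPM or less. This held for 11 of the 139 members (7.91%), beside 1.45% of all genes kept. By position they were AT3G30165, AT3G30770, AT3G30820, AT3G31910 (an Ulp1 protease family protein), ATA1 (AT3G42960, TAPETUM 1, a dehydrogenase first known from the anther), AT3G43290 (uncharacterized), AT3G43340 (a pseudouridine synthase family protein), AT3G43930 (a BRCT domain DNA repair protein), AT3G44070, AT3G44265 and AT3G44980 (uncharacterized). In both msCol libraries 9 of them were at or below 0.1 CPM. The exceptions were ATA1, with 0.429 and 0.205 CPM in msCol 12 and 16, and AT3G43930, with 0.278 and 0.615 CPM. ATA1 and AT3G43930 were graded rather than switched, as 19 and 28 of the 36 epiRILs had intermediate levels, against 0 to 5 epiRILs for each of the other 9. No on/off member reached 1 CPM in both msCol libraries. Just inside the rule was AT3G44980, on in 3 epiRILs. Just outside it were AT3G32190, a myosin heavy chain-like protein with a highest epiRIL level of 1.38 CPM, and AT3G43420, uncharacterized, with a highest level of 1.19 CPM.

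Whether the state of the father was found again in the F1 was tested in the epiHybrids, which had not been used to choose the genes. Of the 11 on/off members, 10 were higher in epiHybrids of on fathers (1 CPM or more) than in epiHybrids of off fathers (0.1 CPM or less), beside 78.6% of the 281 on/off genes of the genome (one-sided permutation test on mean log2(CPM + 1), exact where fewer than 100000 arrangements exist, adjusted p under 0.05 over the 281 genes). Among the 9 members silent in msCol, an on father was followed by an epiHybrid at 1 CPM or more in 80 of 95 cases, by an intermediate level in 9 and by 0.1 CPM or less in 6. An off father was followed by 0.1 CPM or less in 202 of 211 cases and by an intermediate level in 9, and by 1 CPM or more in 0. Cases from 1 family share their libraries and are not independent. Without families 12 and 568 there were again 11 on/off members, of which 10 passed this test.

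AT3G44265 was the most highly expressed on/off member. The epiHybrids of its 14 on fathers had 0 to 88.6 CPM (median 41.8), against at most 0.548 CPM (median 0) in the epiHybrids of its 20 off fathers. The 88.6 CPM came from the library labelled epiHybrid of family 12, whose label is uncertain, and the next highest was 60.6 CPM in family 503. The on fathers themselves had 1.33 to 104 CPM (median 84.0), and the off fathers at most 0.0932 CPM. The difference in mean log2(CPM + 1) was 4.71, adjusted permutation p = 2.1e-05. The groups overlapped only through the epiHybrids of families 579 and 469, at 0 and 0.195 CPM, whose fathers had 21.8 and 1.33 CPM. In family 79 the epiHybrid had 27.1 CPM although its father had 0.238 CPM. That epiHybrid also expressed 23 of the 204 on/off genes that are silent in msCol at 1 CPM or more with a father at 0.1 CPM or less. A stretch of 311 bases of AT3G44265 has a copy elsewhere in the genome at 99.0% identity, so a share of its reads may belong to that copy.

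AT3G44070 behaved much like AT3G44265, 125 kb away. The epiHybrids of its 12 on fathers had 0 to 48.1 CPM (median 25.1), against at most 0.347 CPM in those of 21 off fathers, while the on fathers had 10.4 to 53.5 CPM (median 47.1). The difference was 4.39 on the log2 scale, adjusted permutation p = 2.1e-05. Without family 579 the epiHybrids of on fathers began at 22.3 CPM and did not overlap with those of off fathers. Their top of 48.1 CPM was the library labelled epiHybrid of family 12, and the next highest was 36.9 CPM in family 503. AT3G44070 overlaps the annotated gene AT3G06715.

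At the low coordinates of the span lay AT3G30165, AT3G30770 (647 kb from it) and AT3G30820 (81.6 kb further). AT3G30770 had 0.0252 to 8.43 CPM (median 5.63) in the epiHybrids of 13 on fathers, against at most 0.213 CPM in those of 18 off fathers, and 1.45 to 9.82 CPM (median 7.43) in the on fathers. The 8.43 CPM came from the library labelled epiHybrid of family 12, ahead of 7.11 CPM in family 275. AT3G30165 had 0 to 5.33 CPM (median 3.23) in the epiHybrids of 11 on fathers, against at most 0.0463 CPM in those of 23 off fathers, and 1.63 to 10.3 CPM (median 6.38) in the on fathers. In both genes the only epiHybrid of an on father that fell to the range of the others was that of family 579. AT3G30820 had 0.943 to 5.95 CPM (median 2.19) in the epiHybrids of 12 on fathers, against at most 0.0488 CPM in those of 23 off fathers, without overlap, and 2.68 to 8.12 CPM (median 3.88) in the on fathers. Father 579, at 0.867 CPM of AT3G30820, was in neither group, and its epiHybrid had 0 CPM. The differences were 2.45, 1.93 and 1.76 on the log2 scale for AT3G30770, AT3G30165 and AT3G30820, with an adjusted permutation p of 2.1e-05 for each; the raw p of 1e-05 was the smallest that 100000 shuffles can give.

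To the right of the centromere, AT3G43290 had 0.51 to 3.46 CPM (median 1.18) in the epiHybrids of 11 on fathers, against at most 0.0482 CPM in those of 24 off fathers, again without overlap (difference 1.19, adjusted permutation p = 2.1e-05). The on fathers had 1.03 to 5.45 CPM (median 1.94). Father 579, at 0.408 CPM of AT3G43290, was in neither group, and its epiHybrid had 0 CPM. AT3G43340 had 0 to 11.3 CPM (median 3.23) in the epiHybrids of 15 on fathers, against at most 0.0534 CPM in those of 19 off fathers (difference 2.08, adjusted permutation p = 2.1e-05), and 2.23 to 57.5 CPM (median 4.39) in the on fathers. Its highest epiHybrid and highest father were both of family 79. A stretch of 110 bases of AT3G43340 has a copy elsewhere at 96.4% identity.

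The rarest active states were found in AT3G31910 and AT3G44980. AT3G31910 was on in the 4 fathers 211, 574, 579 and 379, and the epiHybrids of these families had 3.77, 4.23, 0 and 0.14 CPM, against 10.03, 9.47, 2.04 and 1.01 CPM in the fathers. All epiHybrids of the 32 off fathers stayed at or below 0.0463 CPM (difference 1.20, exact permutation p = 0.00056, adjusted p = 0.00076). It overlaps the annotated gene AT3G31915. AT3G44980 was on in the 3 fathers 419, 574 and 469, and their epiHybrids had 3.39, 0.846 and 0.537 CPM, against at most 0.105 CPM in those of 31 off fathers, while the 3 fathers had 6.67, 1.14 and 1.04 CPM (difference 1.20, exact permutation p = 0.000167, adjusted p = 0.000246). No overlap between these groups was seen for AT3G44980, so its p of 0.000167 was the smallest the exact permutation test can give with 3 against 31.

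The graded members behaved differently from each other. AT3G43930 overlaps the gene of the dicer protein DCL3. It had 0.46 to 1.67 CPM in the epiHybrids of 4 on fathers, with the 1.67 CPM in family 12 and 1.28 CPM next, in family 574. The epiHybrids of 4 off fathers had 0.033 to 0.301 CPM. The difference was 0.78 (exact permutation p = 0.0143, adjusted p = 0.0185, and 0.0353 without families 12 and 568). That p of 0.0143 was the smallest this test can give with 4 against 4, and the 28 families with an intermediate father were left out. ATA1 was the on/off member whose state was not found again: the epiHybrids of 13 on fathers had 0.0741 to 2.37 CPM (median 0.977), against 0.539 to 1.48 CPM (median 0.839) in those of 4 off fathers (difference 0.03, exact permutation p = 0.458, adjusted p = 0.471).

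**Figure D2:**
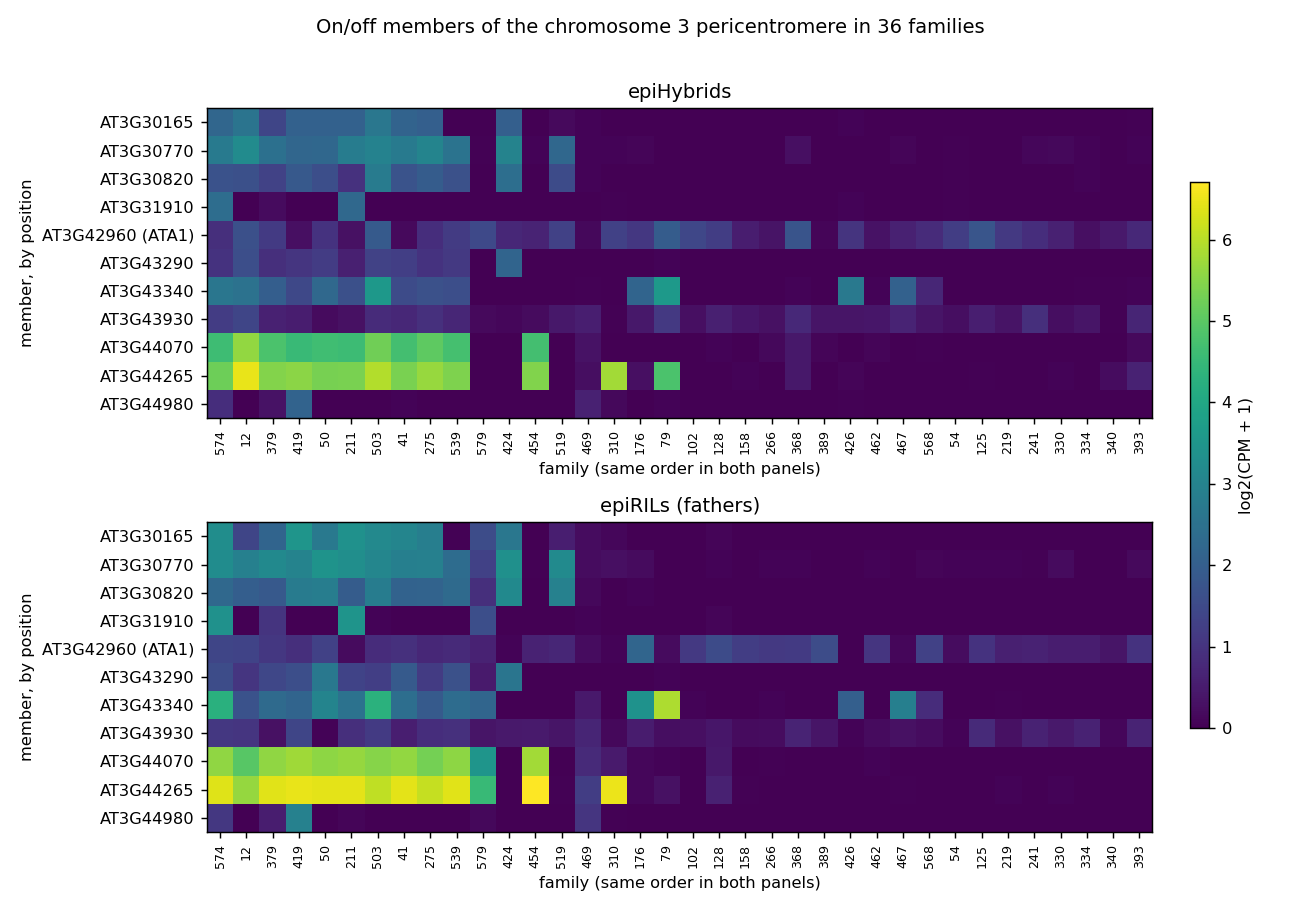
log2(CPM + 1) of the 11 on/off members (rows, by position) in the epiHybrids (top) and the epiRILs (bottom) of 36 families (columns, in the same order, families with most block members on at the left). The states of the fathers recur at a lower level in most epiHybrids, while the epiHybrid of family 579 is dark at every block member and that of family 79 is bright at AT3G44265.

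For each of the 9 members silent in both msCol libraries, the median ratio of epiHybrid to on father was taken over families. The median over the 9 members was 0.508 ± 0.109 (SD, n = 9 members), ranging from 0.259 in AT3G31910 to 0.681 in AT3G30770. AT3G44265, AT3G44070, AT3G43340 and AT3G43290 had 0.481, 0.524, 0.499 and 0.508. Of the 95 single ratios 75 lay between 0.25 and 1, 10 were at 1 or more and 10 at 0.25 or less. Family 12 gave 6 of the 10 at 1 or more, and without families 12 and 568 there were 88 ratios, 74 between 0.25 and 1, 4 at 1 or more and 10 at 0.25 or less, with the median over members again at 0.508. The members share libraries, so the ratios of 1 family are not independent.

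In families with at least 6 of these members on, the median ratio was 0.409 in family 211, 0.463 in 50, 0.496 in 574, 0.5 in 41, 0.506 in 419, 0.538 in 379 and 0.544 in 539. It was 0.806 in family 275 and 0.915 in family 503. In the family labelled 12 the ratio was 1.81, with AT3G44265 at 88.6 CPM in the library labelled epiHybrid and at 49.0 CPM in the library labelled epiRIL. As the maternal index went against both labels, the direction of this ratio is uncertain, and with the libraries turned round the median would be 0.553. Over all on/off genes silent in msCol, the median ratio was 1.55 in family 12, 0.812 in 275 and 0.791 in 503. Family 579 stood at the other end with a median of 0: 6 members were on in its father and at or below 0.1 CPM in its epiHybrid. Genome-wide 21 of the 85 on/off genes that were on in that father were at 0.1 CPM or less in its epiHybrid, with a median ratio of 0.526 over the 85. The on levels of father 579 were low at the members (21.8 CPM for AT3G44265 and 10.4 CPM for AT3G44070).

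**Figure D3:**
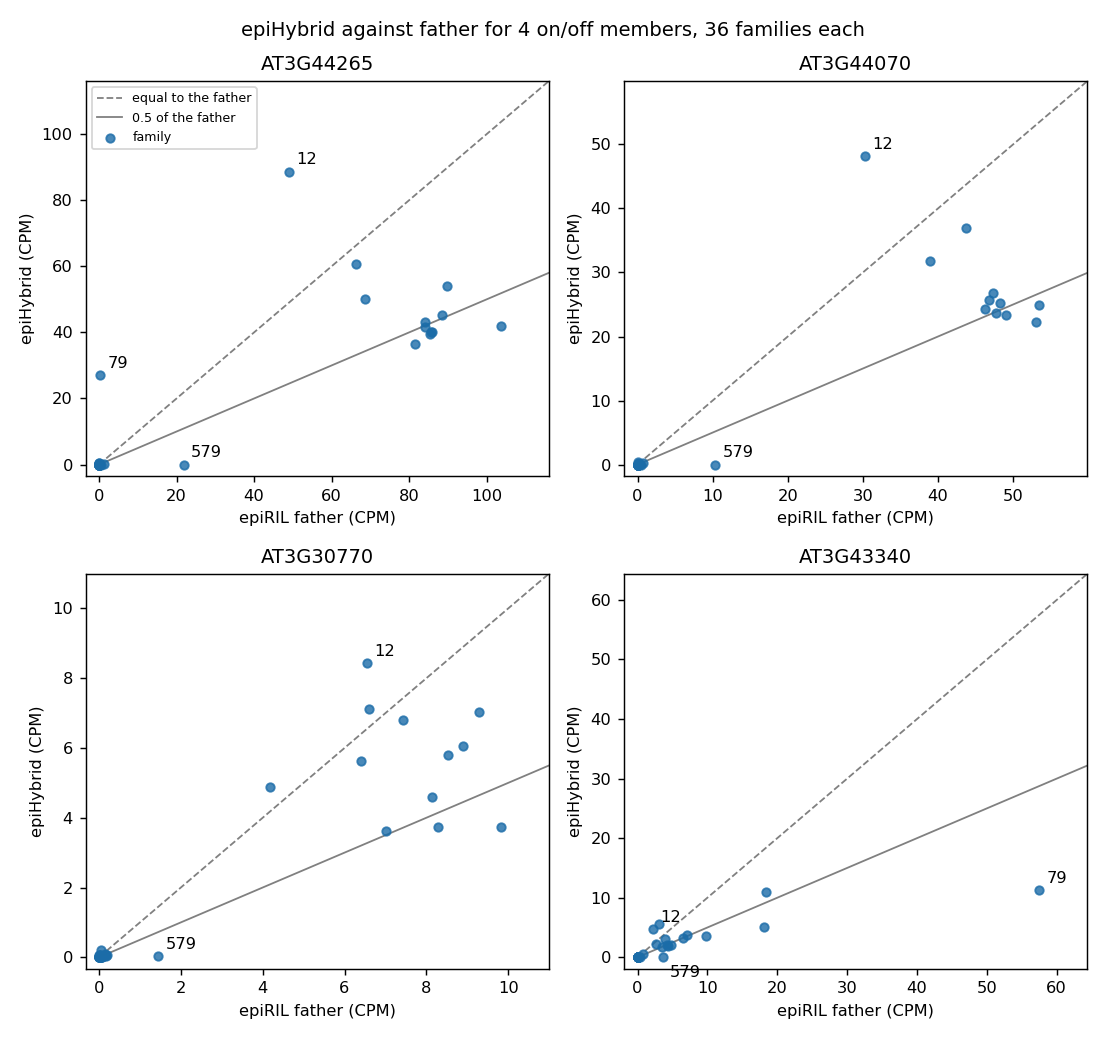
CPM of the epiHybrid (vertical axis) against CPM of its epiRIL father (horizontal axis) for AT3G44265, AT3G44070, AT3G30770 and AT3G43340, 1 point per family (36). The solid line marks 0.5 of the father and the dashed line equality; families 12, 79 and 579 are labelled where they exceed 1 CPM, and most on families lie near the solid line for AT3G44265 and AT3G44070.

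The on/off members were then grouped by the lines in which they were active. Clustering their levels over the 36 epiRILs at a mean r of 0.7 gave 1 block of 6 members, AT3G30165, AT3G30770, AT3G30820, AT3G43290, AT3G44070 and AT3G44265, which spanned 4.16 Mb across the centromere. In the epiHybrids, which had not been used for the clustering, the 15 pairwise r within the block ranged from 0.631 to 0.956 (median 0.815). In the epiRILs they ranged from 0.644 to 0.978 (median 0.778). These values are descriptions over 36 libraries that share their families. AT3G30770 and AT3G30820, 81.6 kb apart, had r = 0.978, and AT3G44070 and AT3G44265 had r = 0.944 in epiRILs. At a stricter mean r of 0.8 only the 4 members AT3G30165, AT3G30770, AT3G30820 and AT3G43290 remained together.

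In 10 epiRILs (12, 41, 50, 211, 275, 379, 419, 503, 539 and 574) at least 5 of the 6 block members were on, and in 20 epiRILs none was. The remaining 6 lines broke the block at different places. In line 424 the members AT3G30165, AT3G30770, AT3G30820 and AT3G43290 were on (5.26, 9.28, 8.12 and 5.10 CPM), while AT3G44070 and AT3G44265 were off. In line 519 AT3G30770 and AT3G30820 were on (8.28 and 6.70 CPM), AT3G30165 was at 0.487 CPM, and the 3 members to the right were off. Line 454 had the opposite pattern, with AT3G44070 and AT3G44265 on (53.5 and 104 CPM) and the others off. Line 310 had AT3G44265 alone at 89.8 CPM with AT3G44070 at 0.403 CPM. Line 539 was on at all block members except AT3G30165. Line 469 had low levels throughout (1.33 CPM for AT3G44265 and 0.727 CPM for AT3G44070), and line 579 had 4 block members on.

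AT3G43340 lay inside the block by position but was not part of it. It was on in all 10 lines of the block and in line 579, and in addition in lines 79, 176, 426 and 467, in which no block member was on. AT3G31910, in turn, was on in only 3 of the 10 lines of the block (211, 379 and 574) and in 579. The r between AT3G43340 and the block members ranged from 0.489 to 0.633 in epiHybrids and from 0.428 to 0.529 in epiRILs.

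Other members were then looked at by the state of the block, and the pair described next was chosen after the values were seen, so it is a description without a test. BR6OX2 (AT3G30180, CYP85A2), the cytochrome P450 of the last steps of brassinosteroid hormone synthesis, lies 12.5 kb from AT3G30165. It was expressed in every library and was lower where the block was on. The epiHybrids of the 10 fathers with the block on had 11.1 to 27.6 CPM (median 21.4), against 12.8 to 57.3 CPM (median 29.9) in those of the 20 fathers with no block member on, and the groups overlapped. The fathers themselves had 9.36 to 18.8 CPM (median 11.99) with the block on, against 20.8 to 46.8 CPM (median 33.7) with none on, without overlap. Without families 12 and 568 the medians were 21.8 CPM against 32.5 CPM in the epiHybrids. With the block on, the lowest epiHybrid was then at 15.6 CPM and the highest father at 14.7 CPM. msCol 12 and 16 had 25.7 and 34.4 CPM. The mean difference in log2(CPM + 1) was -0.56 in epiHybrids and -1.31 in epiRILs. In the lines that broke the block BR6OX2 was at 12.3 and 11.4 CPM in 424 and 519, where AT3G30770 and AT3G30820 were on, and at 29.7 and 48.8 CPM in 454 and 310, where only members to the right were on. Line 579 did not follow this, with BR6OX2 at 29.5 CPM although AT3G30165 and AT3G30770 were on at low levels (1.96 and 1.45 CPM), and in line 519 the nearest block member, AT3G30165, was not on.

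AT3G43430, a RING/U-box protein of the type that attaches ubiquitin, showed the same direction further to the right. The epiHybrids of fathers with the block on had 0.782 to 2.30 CPM (median 1.55), against 1.41 to 5.18 CPM (median 2.78) in those of fathers with none on. The fathers had 0.354 to 1.29 CPM (median 0.951) with the block on, against 2.05 to 4.30 CPM (median 2.67) with none on, without overlap. msCol 12 and 16 had 4.67 and 4.23 CPM. Line 424 had 0.865 CPM, whereas line 519 had 2.05 CPM and line 454 had 5.55 CPM. Of the 128 members that are not on/off, 3 (2.34%) differed by more than 0.5 on the log2 scale between epiRILs with and without the block. The share was 0.727% among the 19244 genes outside the region. The third was AT3G44970, a cytochrome P450, with a median of 1.34 CPM against 2.19 CPM. This limit leaves out smaller differences. JAZ11 (AT3G43440) had an r with the block of -0.556 in epiHybrids and in epiRILs, and FAR4 (AT3G44540) of -0.202 and -0.638. For AT3G44970 this r was -0.345 and -0.439. In the other direction, AT3G42725 had 0.217 and 0.512. These r were not tested.

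**Figure D4:**
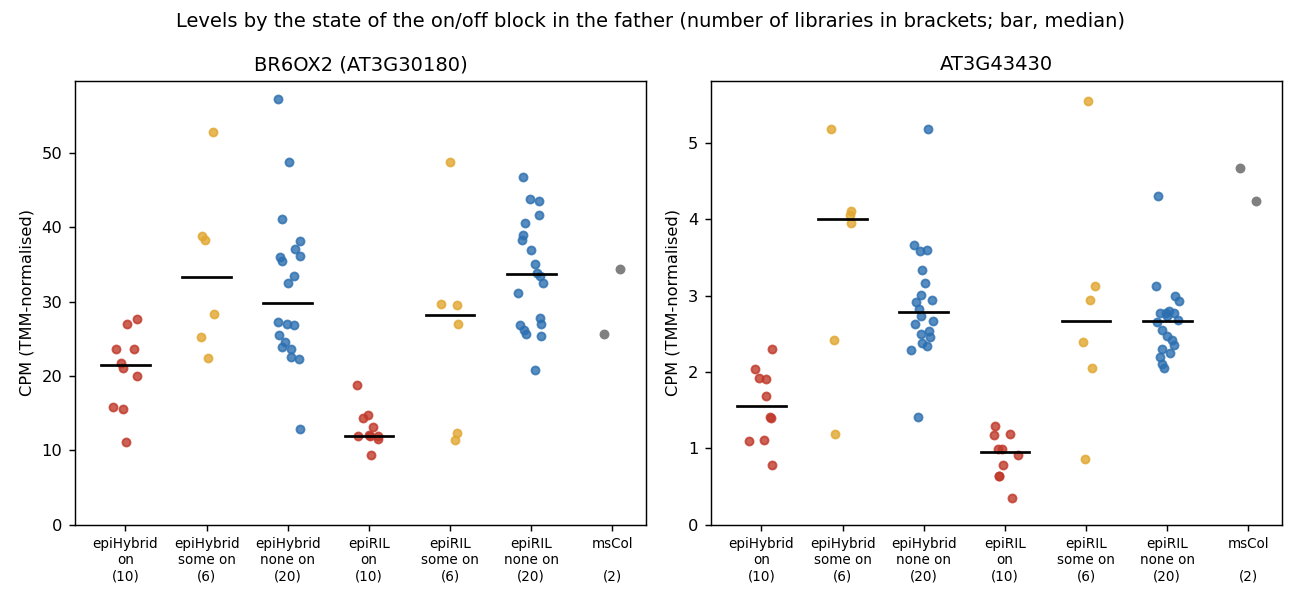
CPM (vertical axis) of BR6OX2 and AT3G43430 in epiHybrids, epiRILs and msCol, grouped by the block in the father (on, at least 5 of 6 block members on; some on; none on), 1 point per library with the median as a bar. In epiRILs the levels with the block on (up to 18.8 and 1.29 CPM) lie below all levels with none on (from 20.8 and 2.05 CPM), and in epiHybrids the groups overlap. The 18.8 CPM is the library labelled epiRIL of family 12, whose label is uncertain, and the next highest is 14.7 CPM.

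Graded differences were also compared between fathers and epiHybrids. Over the 36 families 49 of 139 members (35.3%) had a positive correlation of log2(CPM + 1) (one-sided permutation test, adjusted p under 0.05 over 19383 genes), beside 18.5% of all genes. Among the 128 members that are not on/off there were 39 (30.5%). The count moved together with that of all genes under other settings. It was 16 without the 2 fathers farthest from the median of each gene (5.42% of all genes), 25 for Spearman's rho (9.96%), 34 without families 12 and 568 (13.4%) and 66 without families 340 and 368 (31.3%). For 12 of the 39, levels in the fathers left an empty stretch of 0.25 of the range or more, and no r is given; for the other 27 r lay between 0.392 and 0.702.

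AT3G43430 had the highest r of these 27, 0.70 (permutation p = 1e-05, adjusted p = 0.000718), with a Spearman's rho of 0.74 (permutation p = 1e-05) and an r of 0.72 without its 2 farthest fathers. BR6OX2 followed with r = 0.56 (permutation p = 0.00018, adjusted p = 0.00713) and rho = 0.56 (permutation p = 0.00023), and r was 0.58 without its 2 farthest fathers. Both genes also moved with the block, and the part of the block in these relations was not tested. AT3G44970 had r = 0.53 (permutation p = 0.00052, adjusted p = 0.014) and rho = 0.42 (permutation p = 0.00625). Its r fell to 0.41 without the 2 farthest fathers and then missed the threshold (adjusted permutation p = 0.0795), as it did by Spearman's rho (adjusted permutation p = 0.0537). AT3G43270, of the invertase and pectin methylesterase inhibitor superfamily, had r = 0.52 (permutation p = 0.00053, adjusted p = 0.0142), rho = 0.54 (permutation p = 0.00044) and r = 0.39 without its 2 farthest fathers, which also missed the threshold (adjusted permutation p = 0.094).

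The members with the largest spread that were not on/off were detected in every epiHybrid and epiRIL, but AT3G44050 reached 1 CPM in only 67 of the 74 libraries. CAF1a, a subunit of the deadenylase that shortens mRNA tails, had an SD of 0.757 among epiHybrids (11.6 to 145 CPM) and of 0.803 among epiRILs (19.96 to 220.5 CPM). AT5MAT, a malonyltransferase of anthocyanin synthesis, had an SD of 0.912 among epiHybrids (1.03 to 53.8 CPM, the highest in family 368) and of 0.748 among epiRILs (1.28 to 14.5 CPM). FAMT, a farnesoic acid methyltransferase, ranged from 25.1 to 144 CPM in epiHybrids and from 31.6 to 302 CPM in epiRILs, and AT3G44050, annotated as a P-loop hydrolase, from 0.703 to 8.81 CPM and from 0.335 to 11.8 CPM. BR6OX2 was the third of these 5. Between fathers and epiHybrids AT5MAT had r = 0.48 (permutation p = 0.0011, adjusted p = 0.0208) and rho = 0.60 (permutation p = 7e-05), and CAF1a had r = 0.45 (permutation p = 0.00358, adjusted p = 0.0355) and rho = 0.43 (permutation p = 0.00524). Without the 2 farthest fathers r was 0.50 for AT5MAT, and it was 0.34 for CAF1a with an adjusted permutation p of 0.128. CAF1a also missed the threshold by Spearman's rho (adjusted permutation p = 0.0508) and without families 12 and 568 (r = 0.42, adjusted permutation p = 0.0526). The 2 msCol libraries had 190 and 41.5 CPM of CAF1a.

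Variance between families was compared by exchanging epiHybrid and father within families (two-sided permutation test, adjusted over 19383 genes). It differed for 8 of 139 members (5.76%), beside 1.22% of all genes. It was lower in the epiHybrids for the on/off members AT3G30820, AT3G31910, AT3G43340, AT3G44070 and AT3G44980, with a log2 ratio of variances (epiHybrid over epiRIL) from -1.27 in AT3G31910 to -0.37 in AT3G44070. It was also lower for AT3G32190 and AT3G43420, but these reached 1 CPM in 2 libraries, both epiRILs. AT3G44980 reached it in 4 libraries, of which 3 were epiRILs and 1 an epiHybrid. AT3G32190, AT3G43420 and AT3G44980 thus passed the filter only through the epiRILs, and their lower variance in epiHybrids is no separate result. For the on/off members, the rule itself required high and low epiRILs, so a wide spread among epiRILs was partly built in. The exception was AT3G44620, a protein-tyrosine phosphatase, with a higher variance in epiHybrids (SD 0.273 among epiHybrids against 0.131 among epiRILs, adjusted permutation p = 0.0176). Over all 139 members the median log2 ratio was 0.62, close to the 0.67 of all genes, so most members varied more among epiHybrids than among epiRILs. Without families 12 and 568, 12 members were called (10 of them lower in epiHybrids), beside 301 of the 19383 genes. A filter of 1 CPM in at least 36 libraries removed the 7 members with a lower variance before testing, and AT3G44620, which passed it, was then not called.

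Few members differed in their group means. Between epiHybrids and epiRILs, with family as a block, 2 of 139 members (1.44%) were called by the quasi-likelihood test of edgeR (adjusted p under 0.05), beside 1.31% of all genes. Both were lower in epiHybrids. CAF1a had a median of 54.0 CPM in epiHybrids, against 89.9 CPM in epiRILs (log2 fold change -0.52 ± 0.13 SE, edgeR adjusted p = 0.0371). AT3G30820 averaged 0.865 ± 1.44 CPM over the 36 epiHybrids, against 1.58 ± 2.44 CPM over their 36 fathers (± SD). Its log2 fold change was -0.97 ± 0.23 SE (edgeR adjusted p = 0.0413), but DESeq2 gave -0.47 and an adjusted p of 0.869. Without the family block neither was called. Without families 12 and 568 the count was 5 (3.60%), beside 1.63% of all genes. AT3G30165 (-1.31) and AT3G43340 (-1.13) were then also lower in epiHybrids, and AT3G42800 was higher (0.36).

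Against msCol, 1 member was called in the epiRILs (background 2.75%) and 1 in the epiHybrids (background 1.83%). AT3G44370, annotated as an OxaA/YidC membrane insertion protein, averaged 13.2 ± 2.11 CPM in epiHybrids (SD, n = 36), against 8.68 and 9.72 CPM in msCol 12 and 16 (log2 fold change 0.53 ± 0.14 SE, edgeR adjusted p = 0.0247). It was also the 1 member called between epiHybrids and the mid-parent, which averages both parental groups as log2 levels (0.30 ± 0.07 SE, edgeR adjusted p = 0.0307, background 0.743%). PMAT2 (AT3G29670), a phenolic glucoside malonyltransferase, averaged 11.8 ± 1.98 CPM over 36 epiRILs (± SD), against 14.1 and 23.85 CPM for msCol 12 and 16 (log2 fold change -0.68 ± 0.20 SE, edgeR adjusted p = 0.0488). Without msCol 16 the difference was -0.25 with an edgeR adjusted p of 0.936, and it also missed the threshold without families 12 and 568 (edgeR adjusted p = 0.0577), without a filter (0.0573) and with the replicate block in limma-voom (adjusted p = 0.0581). AT3G44370 kept its direction without either msCol library but was not called (edgeR adjusted p = 0.395 and 0.171 against msCol). As the same msCol libraries enter these contrasts, they are not independent of each other.

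The genes of known function in the region were described through 8 lists with 31 members. None of the 31 was called in any of the 4 contrasts by edgeR or by DESeq2, and 8 of them had an unadjusted p under 0.05 in at least 1 contrast with each tool. None differed in variance, and 13 of the 31 had a father to epiHybrid correlation (background 18.5% of all genes and 35.3% of the 139 members). Except for BR6OX2, only the main setting of this test is given for them.

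Of the hormone genes 4 of 5 had such a correlation. JAZ11, a jasmonate signalling repressor, had 13.4 to 42.7 CPM in epiHybrids and 9.64 to 26.7 CPM in epiRILs. AHP2, a cytokinin phosphotransfer protein, had 12.1 to 42.9 CPM in epiHybrids and 27.1 to 41.6 CPM in epiRILs, and AFP3, of abscisic acid signalling, had medians of 7.53 and 6.72 CPM. AAO2, an aldehyde oxidase, did not pass the test and had medians of 22.1 CPM in epiHybrids and 18.9 CPM in epiRILs. BR6OX2 has been described above.

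Enzymes of carbohydrate and amino acid metabolism had 4 of 6, namely CM1 (chorismate mutase), ERD5 (proline dehydrogenase), SUS4 (sucrose synthase) and ADT4 (arogenate dehydratase). The most expressed of the list was PHS1, the plastid starch phosphorylase, with 88.7 to 363 CPM in epiHybrids and 69.6 to 383 CPM in epiRILs. UGD2, UDP-glucose dehydrogenase, varied least after CM1, with 84.5 to 124 CPM in epiHybrids and 89.4 to 119 CPM in epiRILs.

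Among the nitrilases, enzymes that can form the auxin indole-3-acetic acid, NIT1 was the member with the highest median of the whole region, 1124 CPM in epiHybrids and 1189 CPM in epiRILs. NIT2 ranged from 6.63 to 38.05 CPM in epiHybrids and from 3.71 to 48.5 CPM in epiRILs, with 8.58 CPM in msCol 12 and 54.6 CPM in msCol 16. NIT3 had medians of 5.05 and 5.40 CPM in epiHybrids and epiRILs. Of the 3, NIT1 passed the correlation test.

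The immune receptors of the TIR-NBS-LRR class had 4 members, of which RPP1 and AT3G44670 passed the correlation test. RPP1, a receptor for downy mildew effectors, had 24.3 to 158 CPM in epiHybrids and 27.3 to 110 CPM in epiRILs, and AT3G44670 had 30.2 to 150 CPM and 30.3 to 127 CPM. AT3G44630 had medians of 47.8 CPM in epiHybrids and 46.8 CPM in epiRILs. All 4 share stretches of at least 100 bases at 95% identity or more with 4 to 7 other places in the genome, so their counts are uncertain.

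None of the 7 genes on the chromatin and silencing list, which did not include the members DCL3 and ARP6, passed the correlation test. CLSY1 (AT3G42670), a remodeler of RNA-directed DNA methylation, had the widest range of them, 2.79 to 14.9 CPM in epiHybrids and 2.41 to 12.96 CPM in epiRILs. DAYSLEEPER, a domesticated transposase, had medians of 42.02 and 42.6 CPM in epiHybrids and epiRILs, AL3, a histone reader, 54.2 and 54.0 CPM, and HD2A (AT3G44750), a plant histone deacetylase, 26.9 and 26.5 CPM. HDA9, HIRA and CYP71 had epiHybrid medians of 13.4, 13.4 and 24.6 CPM and epiRIL medians of 13.7, 13.5 and 25.5 CPM, and HDA9 has 5 partial copies that make its count uncertain. Of the ribosomal proteins RPL9 (AT3G44890) had medians of 155 and 151 CPM in epiHybrids and epiRILs and AT3G44010 had 88.1 and 86.1 CPM, and only AT3G44010 of the 3 passed the correlation test. Of the fatty acyl reductases FAR5, which makes primary alcohols of suberin, passed it (medians of 1.15 and 1.31 CPM), and FAR4 did not (0.576 and 0.612 CPM). FAMT was the only SABATH methyltransferase among the members and did not pass it.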

How the data were processed

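RNA-seq libraries of 36 epiHybrids, 36 epiRILs and 2 msCol lines were analysed. The authors deposited raw counts per gene, made by trimming with Trim Galore, alignment to TAIR10 with TopHat2 and featureCounts; versions and strand use are not given in the sources used here. The filter of 1 CPM in 2 or more libraries left 19383 genes, which were scaled by TMM over all 74 libraries. Positions come from RefSeq TAIR10.1, matched by locus name. Contrasts used edgeR 4.0.16 (quasi-likelihood, Benjamini-Hochberg over 19383 genes, SE from the F statistic) in R 4.3.3, with family as a block for epiHybrid against epiRIL, since parentage pairs them, and 1 group model over 74 libraries otherwise. Permutation tests used 100000 shuffles or all arrangements. Scripts were tested on simulated data. Copies were searched with blastn 2.17.0 (95% identity, 100 bases). Members named were those with the largest fold changes among called members, the most expressed of each block, the 5 with the largest spread, the 5 with the highest r, and the most expressed of each role list. Members and lists were chosen with earlier results of these data known. Alternatives used RLE, DESeq2 1.42.0, limma 3.58.1, other filters, pseudocounts, thresholds and left-out libraries.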

Additional observations from a re-analysis of the deposited data

How the results depend on the processing

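The transmitted states, the ratio of epiHybrid to father, the median spread and the block count kept their values within 1.5 times or 1 SD under all alternatives run, while counts from contrasts and from graded correlations did not. For epiHybrid against epiRIL, 2 members became 1 when 1 CPM was required in at least 36 libraries. They became 0 without the replicate block (13 at an unadjusted p under 0.05). Without families 12 and 568 they became 5 (3.60%, beside 1.63% of all genes). DESeq2 also called 2, but 1 was higher and 1 lower in epiHybrids, and AT3G30820 was not called. For epiRIL against msCol, 1 became 0 without a filter (14 unadjusted) and without families 12 and 568 (14 unadjusted), 4 without families 340 and 368, 2 with the replicate block in limma-voom (PMAT2 not among them), 7 by DESeq2, and 0 to 1 without 1 msCol library. For epiHybrid against msCol, 1 became 4 without families 340 and 368, 2 with the replicate block, 4 by DESeq2, and 0 without either msCol library (9 and 7 unadjusted). For epiHybrid against mid-parent, 1 became 4 by DESeq2, 0 without either msCol library (10 and 6 unadjusted) and 57 with an arithmetic mid-parent per family, a fit that takes the msCol mean as known without error. The 57 with the arithmetic mid-parent were 41.0% of members, beside 38.7% of all genes. By DESeq2 the counts of 7, 4 and 4 were 5.04%, 2.88% and 2.88% of members, beside 4.17%, 3.29% and 2.05% of all genes. Members with a correlation numbered 49 (beside 18.5% of all genes), against 25 by Spearman's rho (9.96%) and 16 without the 2 farthest fathers (5.42%). With the filter of 36 libraries there were 31 (beside 16.2% of the genes tested). Members with unequal variance numbered 8 (beside 237 of the 19383 genes), against 5 with a pseudocount of 0.1 (beside 152 genes). The number was 0 with the filter of 36 libraries, which removed 7 of the 8 before testing. With that filter 26 members had an unadjusted p under 0.05, and 16 genes of 17925 were called. On/off members numbered 11 (beside 281 of all genes kept), against 7 (beside 182) when 5 lines were required in each state. The difference for ATA1 (AT3G42960), 0.029, turned to -0.091 with a pseudocount of 0.1, -0.038 without families 340 and 368 and -0.022 without families 12 and 568, and was not called in any of them. Alternatives without families 12 and 568 were chosen after seeing the data. Over all genes, 254 calls for epiHybrid against epiRIL became 165 without the block, 533 for epiRIL against msCol became 128 and 220 without 1 msCol library, 896 without families 340 and 368 and 808 by DESeq2, 355 for epiHybrid against msCol became 85, 126, 732 and 638, and 144 for the mid-parent became 72, 45, 335 and 398, or 7510 with the arithmetic mid-parent. The cause of these changes was not tested. Depth limits the off state: levels under 0.0735 CPM, a limit at the median library total before TMM scaling, cannot be told from 0.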
